A study of Mus musculus with 24 samples.

Results

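UDP-glucuronosyltransferases join glucuronic acid, taken from UDP-glucuronic acid, to bilirubin, steroid hormones, bile acids, phenols and drugs, which makes them soluble enough to leave the body in bile and urine. Transcripts of 10 such genes of mouse liver are described here. They are Ugt1a1, Ugt1a6a, Ugt1a6b and Ugt1a9 of the Ugt1a locus on chromosome 1, and Ugt2b1, Ugt2b5, Ugt2b34, Ugt2b35, Ugt2b36 and Ugt2a3 of the Ugt2 cluster on chromosome 5. The 10 genes were taken by symbol from the 54532 genes of the count table, whatever their values, and all 10 passed the filter on low counts. The table holds 22 rows of the wider Ugt family, so 12 further rows are summarised near the end.

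The study sequenced liver mRNA of wild-type mice (Hlf+/+/Dbp+/+/Tef+/+) and of triple knockout mice (Hlf-/-/Dbp-/-/Tef-/-), which lack the 3 PAR bZip transcription factors. Mice of both genotypes were aged 12 to 16 weeks and fed ad libitum, per the labels. Livers were sampled every 4 h from ZT04 to ZT24 (zeitgeber time, hours from lights on), with 24 libraries in 12 groups of 2. The labels mark replicate 1 with an I and replicate 2 with a P, so the libraries are called set I and set P. The labels do not say what the letters mean, give no strain, do not spell out the sex, and do not say that the deletions were limited to the liver. Nor do they say whether a group's libraries came from different animals. The p-values thus measure the spread between these libraries, and that spread may be technical.

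Glucuronidation runs in the endoplasmic reticulum of hepatocytes. UDP-glucose dehydrogenase makes the sugar donor in the cytosol, a transporter carries it into the lumen, and export pumps such as Abcc2 move the conjugates into bile. The Dbp, Tef and Hlf proteins bind DNA as dimers at the palindrome TTACGTAA and its variant TTATGTAA, cycle in abundance in liver, and are known for driving genes of drug metabolism, including the nuclear receptor gene Nr1i3 (CAR). Several Ugt genes are known targets of the nuclear receptors CAR and PXR, of the aryl hydrocarbon receptor and of the hepatocyte factor HNF1.

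Libraries held between 14613001 and 19288322 counts. The 6 wild-type libraries of set I stood apart from the other 18 and bear on every comparison of the genotypes below. Each gene's scaled log2 count in a library was taken minus that gene's median over the 24 libraries. The correlation of this difference with GC content, across genes, averaged 0.437 ± 0.195 in wild-type set I (SD, n = 6). The same mean was −0.0599 ± 0.100 in wild-type set P, −0.0514 ± 0.0578 in knockout set I and −0.228 ± 0.0795 in knockout set P. The 6 Ugt2 transcripts are poor in GC (38.8% to 41.6%) and the 4 Ugt1a transcripts less so (43.9% to 47.2%), against a median of 49.2% over all genes tested. The Ugt2 genes counted low in wild-type set I, where their log2 ratios of set I over set P ran from −1.01 (Ugt2b34) to −0.47 (Ugt2b1). The 1509 genes with the least GC, at a median of 39.3%, had a median ratio of −1.11 in wild type and −0.146 in the knockout. For each of the 10 genes the genotype difference is therefore given from all 24 libraries, from set P alone, without the 6 wild-type libraries of set I, and with each library's trend over GC content and transcript length taken out. For other genes it is given from all 24 libraries, with set P and the trends where they bear on the call. Leaving out wild-type set I leaves a single library in each wild-type group. The spread in that fit of group means thus comes from the knockout groups alone, and both knockout sets are set against wild-type set P. Its p-values are to be read with that limit. What part the composition of these libraries plays in the differences was not tested.

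**Figure D1:**
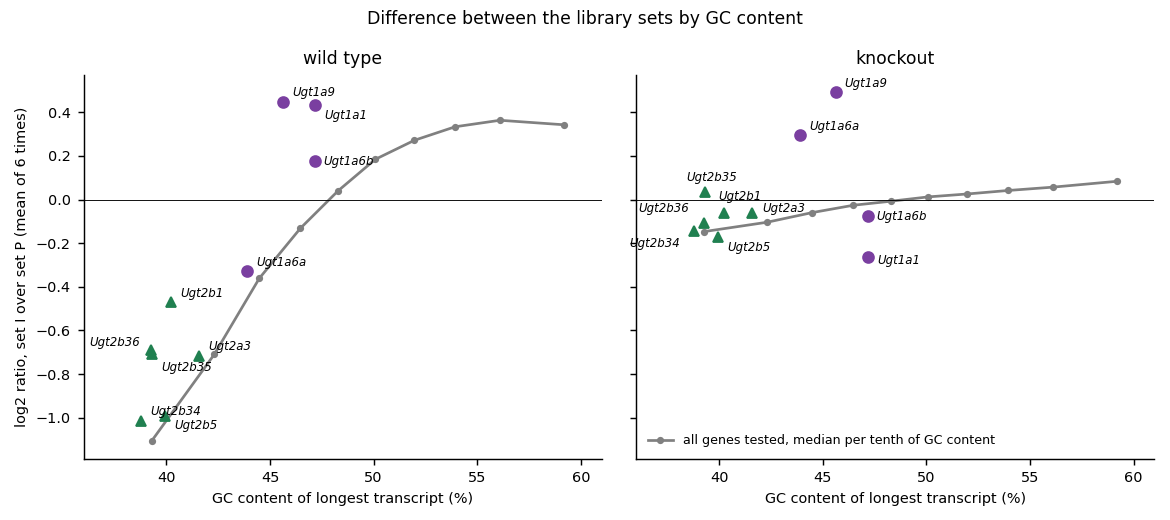
Log2 ratio of set I over set P (mean of 6 times, y axis) against GC content of the longest transcript in percent (x axis), in wild type (left) and knockout (right), for the 4 Ugt1a genes (circles), the 6 Ugt2 genes (triangles) and the median of all genes tested binned by GC content (grey line). In wild type the 6 Ugt2 genes lie between −1.01 and −0.47, near the line, and in the knockout they lie near 0.

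The liver label was checked against cell type markers. All 6 hepatocyte markers were measured, with Alb at a wild-type median of 63690 CPM (counts per 1000000 counts of the library) and a knockout median of 35780 CPM. The summed hepatocyte list moved with genotype, from 65362 to 94730 CPM in wild-type and from 39919 to 66138 CPM in knockout libraries. Alb makes up most of that sum, and the other 5 markers moved less in CPM. Wild-type and knockout medians were 6658 and 5357 CPM for Apoa1, 5296 and 4280 for Ttr, and 2772 and 1989 for Ass1. They lay closer for Cps1 (4705 and 4584) and Serpina1a (1233 and 1146). The part of this list in the results was not tested, and fewer cells of a type and less RNA per cell cannot be told apart in whole tissue. Ugt genes are also used in intestine and kidney. The 3 kidney markers summed to at most 0.121 CPM in any library, and Slc12a1 was at 0. Of the 3 intestinal markers Alpi was at 0 throughout and Vil1 reached 0.406 CPM, while Fabp2 had medians of 29.3 CPM (wild type) and 40.6 CPM (knockout).

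Averaged over the day, 5 of the 10 genes rose in the knockout, 2 fell and 3 did not pass the test. Ugt1a6a, Ugt2b5, Ugt2b34, Ugt2b35 and Ugt2b36 were higher, with log2 changes of 0.55 to 0.74, and Ugt1a9 and Ugt2b1 were lower (−0.53 and −0.34). Over all 15090 genes tested, 12.1% rose and 21.1% fell, and the median log2 change was −0.02 against 0.41 over the 10 genes. The median over the 10 genes was 0.27 in set P and 0.10 with the trends over GC content and length taken out. Over all genes tested these medians were −5.06e-05 and 0.06. In set P alone 5 genes rose (6.71% of all genes tested) and 1 fell (6.33%), and the 5 were Ugt1a1, Ugt1a6a, Ugt2b5, Ugt2b34 and Ugt2b36. With the trends over GC content and length taken out, 4 rose (15.1%) and 2 fell (13.8%). Ugt1a6a, Ugt2b5, Ugt2b34 and Ugt2b36 rose and Ugt2b1 fell under each of these choices, including the one without wild-type set I (where 9.91% of genes rose and 8.86% fell). In set P with the trends also taken out, 2 rose (Ugt1a1 and Ugt2b5, against 5.4% of all genes) and Ugt2b1 fell (5.71%). By a test added after seeing the data, the genotype difference of set P differed from that of set I for 7 of the 10 genes (29% of all genes tested).

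**Figure D2:**
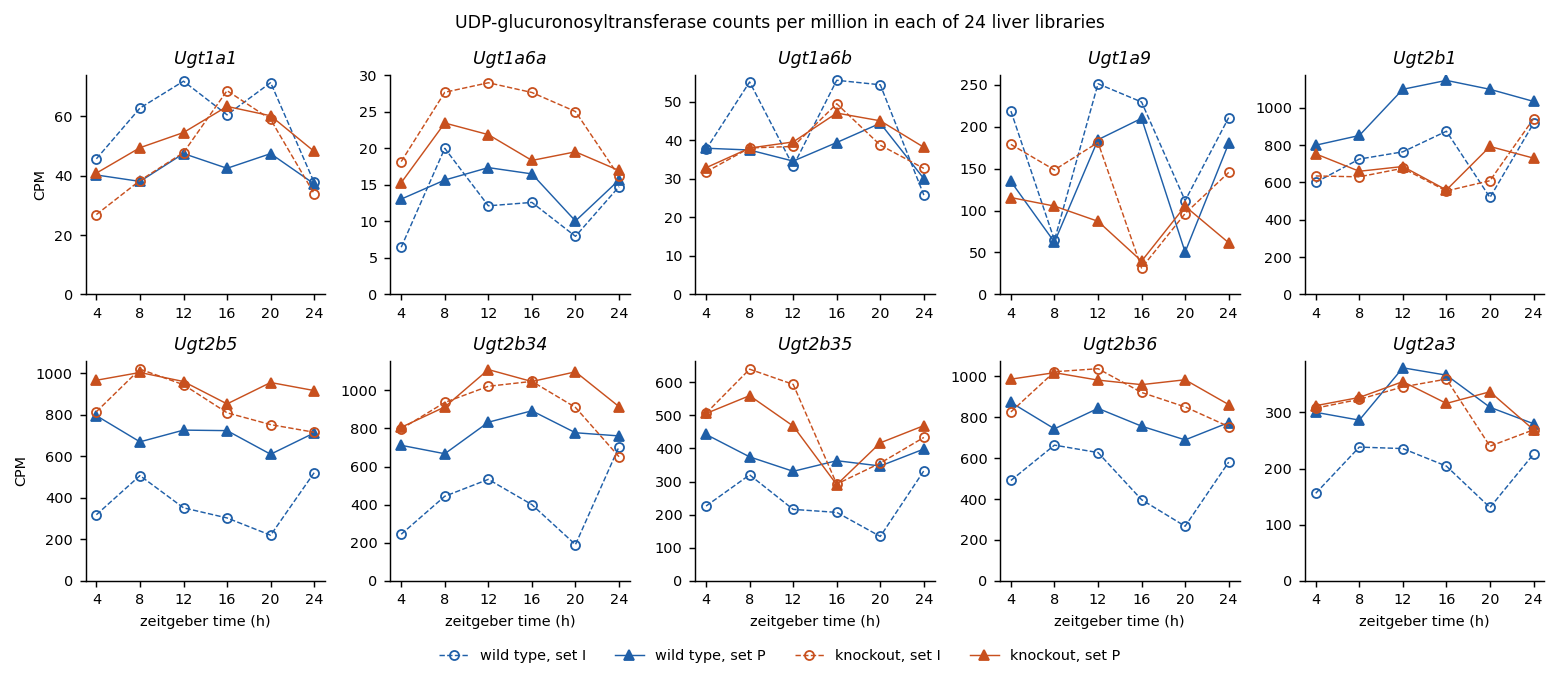
CPM of each gene (y axis, from 0) at 6 zeitgeber times in hours (x axis), 1 point per library, with wild type in blue, knockout in orange, set I as open circles and set P as filled triangles. Wild-type set I runs lowest for Ugt2b5, Ugt2b34, Ugt2b36 and Ugt2a3 at most times, while in set P the knockout is above wild type at all 6 times for Ugt2b5 and below it at all 6 for Ugt2b1.

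**Figure D3:**
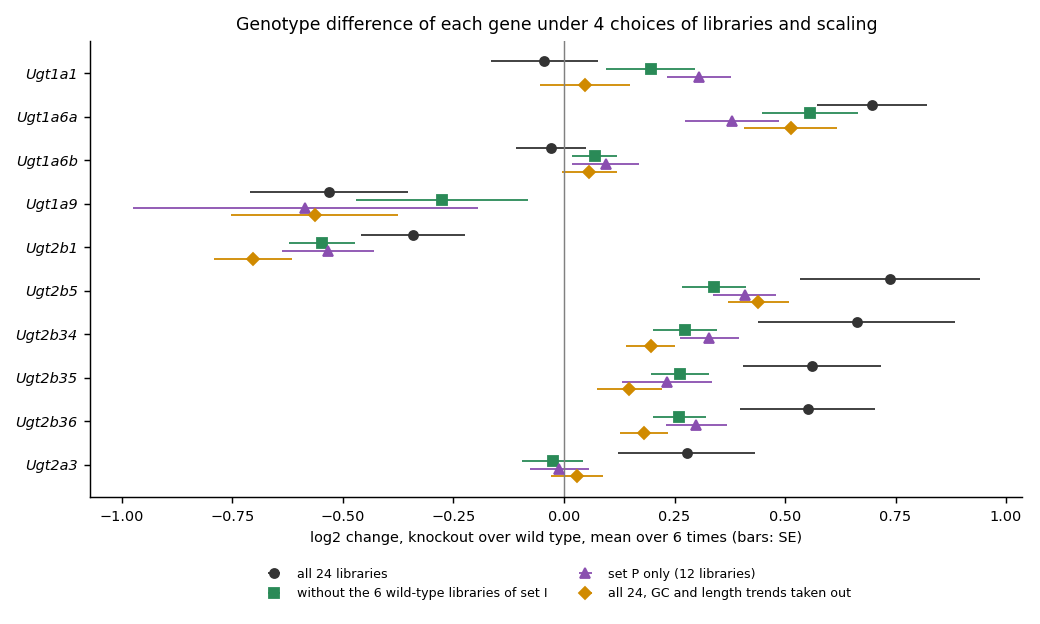
Log2 change of knockout over wild type, averaged over 6 times (x axis), for each gene (y axis) with its standard error, under 4 choices of libraries and scaling. The changes of the 5 Ugt2 genes above 0 shrink without wild-type set I (Ugt2b5 from 0.74 to 0.34), and that of Ugt2b1 moves further below 0 (−0.34 to −0.55).

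The 9 genes of the Ugt1a locus each have a first exon of their own, which encodes the part of the enzyme that binds the substrate, spliced to shared exons that encode the part that binds UDP-glucuronic acid. The 735 coding bases after the first exon were a single sequence in all 9 annotated genes. The joins of the first exon (lower case, 30 bases) to the first shared exon (capitals, 30 bases, mm10 chr1:88215044-88215073, plus strand) are printed for the 4 genes, because counts from the capitals onward cannot be told apart among them. The first-exon ends lie at chr1:88212842-88212871 for Ugt1a1, chr1:88139302-88139331 for Ugt1a6a, chr1:88107770-88107799 for Ugt1a6b and chr1:88071649-88071678 for Ugt1a9.
Ugt1a1: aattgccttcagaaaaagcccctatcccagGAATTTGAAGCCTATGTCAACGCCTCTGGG
Ugt1a6a: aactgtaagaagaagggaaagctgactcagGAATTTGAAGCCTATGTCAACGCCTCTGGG
Ugt1a6b: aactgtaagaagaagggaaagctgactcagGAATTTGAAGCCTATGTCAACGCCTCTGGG
Ugt1a9: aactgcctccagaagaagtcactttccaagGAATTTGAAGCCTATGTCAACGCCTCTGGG
The letters of Ugt1a6a and Ugt1a6b are the same on both sides of the join. Their whole coding sequences are 98.37% identical, with 774 identical bases in a row at the longest. Between 39.4% (Ugt1a6b) and 49.7% (Ugt1a6a) of the exonic bases of these 4 genes belong to no other gene. How the authors' counting treated reads of the shared part is not given in the sources used here, so every Ugt1a value is uncertain to that extent.

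Ugt1a6a (ENSMUSG00000054545, mm10 chromosome 1, 88134809 to 88218997, plus strand) encodes an enzyme for small planar phenols and was the least abundant of the 10, with at least 106 counts in each library. In wild type it ran from 6.46 through a median of 12.4 to 19.99 CPM in set I, and from 10.1 through 15.7 to 17.4 CPM in set P. In the knockout it ran from 16.2 through 26.3 to 28.95 CPM in set I, and from 15.3 through 18.9 to 23.5 CPM in set P. The ranges of the genotypes overlap, but at each of the 6 times the knockout library was the higher in both sets. How many of all genes do so was not taken, here or for the counts of times given for genes below. The averaged log2 change was 0.70 (SE 0.12, edgeR adjusted p = 0.00116), or 1.62-fold. It was 0.38 in set P (SE 0.11, edgeR adjusted p = 0.0380), and with the trends also taken out of set P the change was 0.33 (edgeR adjusted p = 0.0683). Without wild-type set I it was 0.56 (edgeR adjusted p = 0.00458), and with the trends taken out of all libraries 0.51 (edgeR adjusted p = 0.00266). Its near copy Ugt1a6b (ENSMUSG00000090145, chromosome 1, 88103252 to 88219003) had means of 40.5 ± 9.96 CPM (wild type) and 39.2 ± 5.59 CPM (knockout, SD, n = 12 each). The log2 change of Ugt1a6b was −0.03 (SE 0.08, edgeR adjusted p = 0.769) over all libraries, 0.09 in set P (edgeR adjusted p = 0.446), 0.07 without wild-type set I (0.392) and 0.06 with the trends taken out (0.497).

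Ugt1a1 (ENSMUSG00000089960, chromosome 1, 88211959 to 88218997) encodes the enzyme that conjugates bilirubin. Wild-type set I lay between 37.8 and 71.9 CPM with a median of 61.7, and wild-type set P between 37.3 and 47.5 CPM with a median of 41.4. Knockout set I lay between 26.9 and 68.7 CPM with a median of 43.1, and knockout set P between 40.9 and 63.4 CPM with a median of 52.0. The sets went opposite ways: the knockout was the higher at 1 of 6 times in set I and at all 6 in set P. Over all libraries the log2 change was −0.04 (SE 0.12, edgeR adjusted p = 0.773). In set P it was 0.31 (SE 0.07, edgeR adjusted p = 0.0190), without wild-type set I it was 0.20 (edgeR adjusted p = 0.201), and with the trends taken out 0.05 (edgeR adjusted p = 0.741).

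Ugt1a9 (ENSMUSG00000090175, chromosome 1, 88070800 to 88218997), which encodes an enzyme for bulky phenols and drugs, was the most abundant Ugt1a member and, over all libraries, the gene of the 10 with the largest difference at a single time. At ZT16 the wild-type libraries held 229 and 210 CPM and the knockout libraries 31.5 and 39.7 CPM. Both knockout libraries of that time lay below all 12 wild-type libraries, a pattern whose share over all genes was not taken. The log2 change at ZT16 was −2.62 (SE 0.46, edgeR adjusted p = 0.00822), where 1.65% of all genes passed. Leaving out any of 3 of the 4 ZT16 libraries (wild-type set I or either knockout library) left 1 library in a group and raised the edgeR adjusted p to between 0.0523 and 0.122, with log2 changes of −2.46 to −2.77.

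In wild type Ugt1a9 was low at ZT08 (64.6 and 62.3 CPM) and ZT20 (112 and 50.5 CPM) and ran from 135 to 251 CPM at the other 4 times. In the knockout it held 148 and 105 CPM at ZT08, 96.4 and 105 CPM at ZT20, and 61.6 to 181 CPM at ZT04, ZT12 and ZT24. The wild-type lows at ZT08 and ZT20 and the knockout low at ZT16 appear in both sets. A test of any difference among the 6 wild-type times gave an edgeR adjusted p of 0.0547 (6.66% of all genes passed), and 0.00772 with the set as a block. The same test among the 6 knockout times gave 0.176 (2.25% of all genes passed) and 0.0364 with the block. With the trends taken out as well, the values were 0.00494 in wild type and 0.0232 in the knockout, again from edgeR. The shares of all genes that passed in the fits with the block are not given here. The averaged log2 change was −0.53 (SE 0.18, edgeR adjusted p = 0.0343), and −0.59 in set P (SE 0.39, edgeR adjusted p = 0.354). Any of 15 of the 24 libraries, left out alone, ended the averaged call (edgeR adjusted p up to 0.0891) as did leaving out wild-type set I (log2 change −0.28, edgeR adjusted p = 0.362). With the trends taken out it was −0.56 (edgeR adjusted p = 0.0367).

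The make-up of the locus differed at that time. At knockout ZT16 Ugt1a9 made up 14.5% and 18.8% of the counts of the 9 Ugt1a rows, against 60.7% and 65.0% in wild type. Ugt1a5, a row of the same locus outside the 10, reached 37.6 and 40.2 CPM at knockout ZT16. The other knockout libraries held 7.17 to 28.2 CPM and the wild-type libraries 11.5 to 31.95 CPM. The Ugt1a5 difference at ZT16 did not pass (log2 change 1.37, edgeR adjusted p = 0.121). Summed over the 9 rows, the log2 change was −0.71 at ZT16 (SE 0.24, edgeR adjusted p = 0.176) and −0.20 averaged over the day (SE 0.10, edgeR adjusted p = 0.111). Neither passed the test.

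The 6 Ugt2 genes lie within chr5:86889767-87337195 and encode enzymes for steroids, bile acids and drugs. Their exons are not shared, but Ugt2b5 and Ugt2b36 have 88.43% identical coding bases. Identical stretches in this group reach at most 111 bases (Ugt2a3 and Ugt2b34), so reads could still be misplaced among them. Outside the 6, Ugt2b5 is closer to Ugt2b38 (97.04%, with 443 identical bases in a row at the longest) and Ugt2b37 (94.65%, with 118). Reads could be misplaced between these rows as well. Ugt2b1 fell and Ugt2b5 rose, and the 250 bases before their RefSeq starts are printed because only the first holds a PAR bZip motif (GRCm38.p6, 5′ to 3′ on the gene's minus strand, motif in capitals). Promoter windows were found in the RefSeq table for 9 of the 10 genes, all but Ugt1a6b. Both strands were searched for TTATGTAA and TTACGTAA, which occur in 0.8188% and 0.1126% of 32851 such windows. The window is chr5:86926504-86926753 for Ugt2b1 and chr5:87140341-87140590 for Ugt2b5.
Ugt2b1: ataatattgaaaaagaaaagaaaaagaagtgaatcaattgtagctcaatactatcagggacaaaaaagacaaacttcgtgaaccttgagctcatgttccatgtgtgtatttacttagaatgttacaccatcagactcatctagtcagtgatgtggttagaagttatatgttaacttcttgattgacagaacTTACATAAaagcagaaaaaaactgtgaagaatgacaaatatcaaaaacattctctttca
Ugt2b5: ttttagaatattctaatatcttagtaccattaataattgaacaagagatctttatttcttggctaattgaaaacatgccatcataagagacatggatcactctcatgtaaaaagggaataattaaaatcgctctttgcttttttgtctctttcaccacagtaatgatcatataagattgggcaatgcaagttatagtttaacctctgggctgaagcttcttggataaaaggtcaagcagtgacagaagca
The Ugt2b1 match is TTATGTAA read on the other strand, with its first printed base 59 bases before the start. None of the other 8 windows held either motif. They include that of Ugt1a9, which was also lower in the average over all libraries. A match is a run of letters and was not shown to be bound here.

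Ugt2b1 (ENSMUSG00000035836, mm10 chromosome 5, 86916638 to 86926530, minus strand) had a level per length in wild type that did not differ beyond the spread from those of Ugt2b5 and Ugt2b36. In set P Ugt2b1 ran from 799 through a median of 1066 to 1146 CPM in wild type and from 560 through 708 to 792 CPM in the knockout. The set P libraries of the genotypes did not overlap, a pattern of 2.4% of all genes in that direction. In set I, where this gene counted low in wild type, the ranges of 519 to 916 CPM and 554 to 941 CPM covered each other. The averaged log2 change was −0.34 (SE 0.12, edgeR adjusted p = 0.0388), and −0.53 in set P (SE 0.10, edgeR adjusted p = 0.00718). Without wild-type set I it was −0.55 (edgeR adjusted p = 0.000474). With the trends over GC content and length taken out it was −0.70 (SE 0.09, edgeR adjusted p = 3.96e-05). Over all 24 libraries the call ended when any of 20 single libraries was left out (edgeR adjusted p up to 0.103) and with DESeq2 size factors as scaling (edgeR adjusted p = 0.0565). At ZT16 the wild-type libraries held 874 and 1146 CPM and the knockout libraries 554 and 560 CPM. That difference passed with the trends taken out (log2 change −1.50, edgeR adjusted p = 0.00117) but not over the libraries as counted (−0.86, edgeR adjusted p = 0.171).

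Ugt2b5 (ENSMUSG00000054630, chromosome 5, 87124960 to 87140318, minus strand) had the largest averaged rise of the 10 over all libraries and in set P, but not without wild-type set I or with the trends taken out, where that of Ugt1a6a was larger. In set P Ugt2b5 ran from 610 through a median of 718 to 796 CPM in wild type and from 852 through 958 to 1004 CPM in the knockout. In set I it ran from 219 through 335 to 521 CPM in wild type and from 716 through 812 to 1020 CPM in the knockout. Knockout libraries of set P lay above wild-type libraries without overlap, which held for 2.82% of all genes. The same held in set I, where GC-poor genes counted low in wild type and the share over all genes was not taken. Over both sets the lowest knockout library of set I lay below the highest wild-type library of set P. The log2 change was 0.74 (SE 0.20, edgeR adjusted p = 0.0154) over all libraries, 0.41 in set P (SE 0.07, edgeR adjusted p = 0.00402), 0.34 without wild-type set I (edgeR adjusted p = 0.00739) and 0.44 with the trends taken out (SE 0.07, edgeR adjusted p = 0.000351).

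Ugt2b36 (ENSMUSG00000070704, chromosome 5, 87065927 to 87092555, minus strand) ran in set P from 689 through 765 to 873 CPM in wild type and from 862 through 983 to 1018 CPM in the knockout, with the knockout higher at all 6 times. Its log2 change was 0.55 (SE 0.15, edgeR adjusted p = 0.0160) over all libraries and 0.30 in set P (SE 0.07, edgeR adjusted p = 0.0171). It was 0.26 without wild-type set I (edgeR adjusted p = 0.0106) and 0.18 with the trends taken out (edgeR adjusted p = 0.0237). Ugt2b34 (ENSMUSG00000029260, chromosome 5, 86889767 to 86906937, minus strand) ran in set P from 667 through 769 to 893 CPM in wild type and from 806 through 981 to 1109 CPM in the knockout. The knockout was again the higher at all 6 times of set P. For Ugt2b34 the log2 change was 0.66 (SE 0.22, edgeR adjusted p = 0.0348) over all libraries, 0.33 in set P (edgeR adjusted p = 0.00852), 0.27 without wild-type set I (0.0226) and 0.20 with the trends taken out (edgeR adjusted p = 0.0177). Over all libraries its call ended when any of 16 single libraries was left out (edgeR adjusted p up to 0.0797). In set P with the trends also taken out, neither Ugt2b34 nor Ugt2b36 passed (0.20 and 0.21, edgeR adjusted p = 0.0973 and 0.0693).

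Ugt2b35 (ENSMUSG00000035811, chromosome 5, 87000860 to 87013275) is the one of the 6 on the plus strand. Set P held 331 to 442 CPM in wild-type and 290 to 560 CPM in knockout libraries, where both ZT16 libraries were low (292 and 290 CPM in sets I and P). Its call over all libraries (log2 change 0.56, SE 0.16, edgeR adjusted p = 0.0164) was lost in set P (0.23, edgeR adjusted p = 0.157) and with the trends taken out (0.15, edgeR adjusted p = 0.134), but not without wild-type set I (0.26, edgeR adjusted p = 0.0168). Ugt2a3 (ENSMUSG00000035780, chromosome 5, 87324972 to 87337195, minus strand) ran in set P from 280 to 380 CPM in wild-type and from 269 to 355 CPM in knockout libraries. The log2 change of Ugt2a3 was 0.28 (SE 0.15, edgeR adjusted p = 0.157) over all libraries and −0.01 in set P (SE 0.07, edgeR adjusted p = 0.939). It was −0.03 without wild-type set I (edgeR adjusted p = 0.839) and 0.03 with the trends taken out (edgeR adjusted p = 0.718). With the set as a block it passed (0.32, edgeR adjusted p = 0.0393), in a fit that called 52.3% of all genes. Summed over the 6 Ugt2 genes, libraries averaged 2464 ± 651 CPM in wild-type set I, 3961 ± 245 in wild-type set P, 4091 ± 402 in knockout set I and 4356 ± 227 in knockout set P (SD, n = 6 each).

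**Figure D4:**
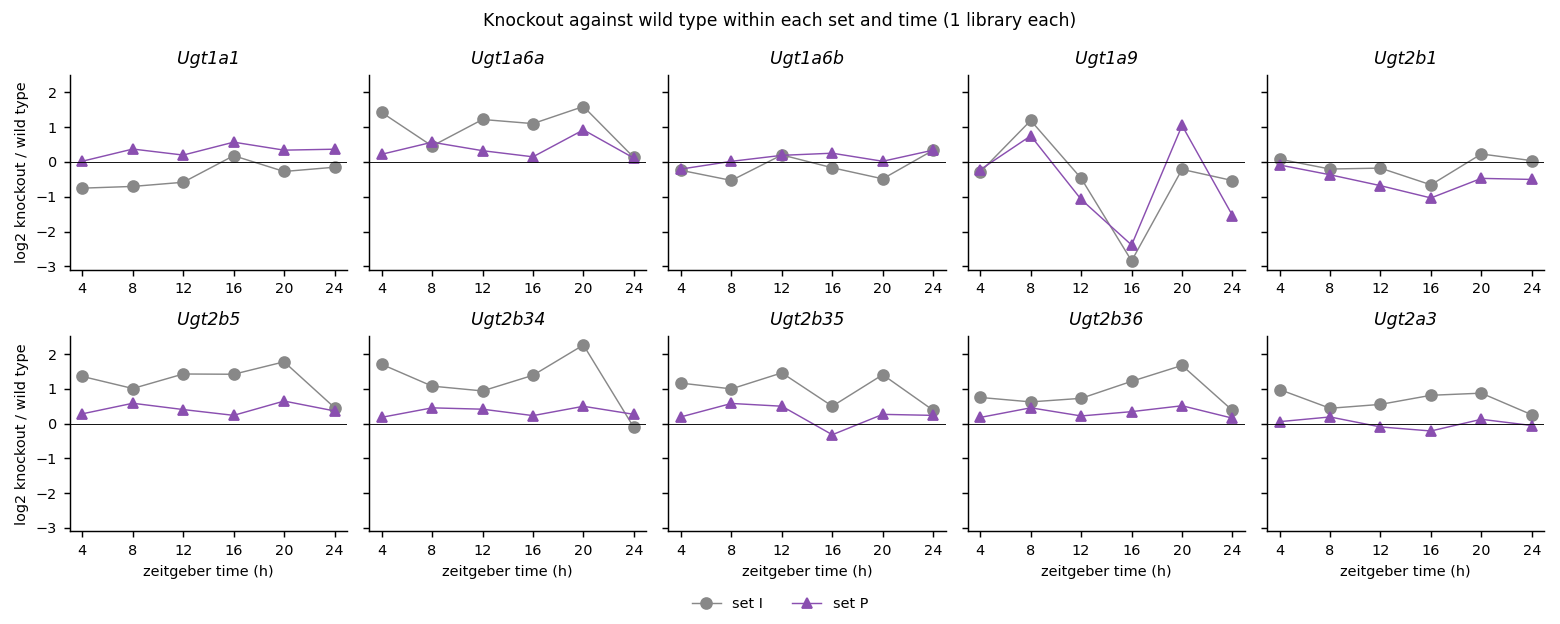
Log2 ratio of the knockout library over the wild-type library of the same set and time (y axis) at each zeitgeber time in hours (x axis) for the 10 genes, with set I in grey circles and set P in purple triangles, 1 library against 1. Ugt1a9 dips at ZT16 in both sets, and for the 5 other Ugt2 genes beside Ugt2b1 the set I ratios lie above those of set P at most times.

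Set P gives the course of the differences over the day as log2 ratios of 1 library over 1. Its genotypes lay closer in GC trend than those of set I but still differed. The mean correlations with GC content were −0.0599 in wild type and −0.228 in the knockout, and the knockout value was the lower at each time. At ZT20 the values were 0.0538 and −0.305. What part of the ratios goes with that trend was not tested. Ugt2b5 ranged from 0.24 at ZT16 to 0.65 at ZT20, Ugt2b34 from 0.18 at ZT04 to 0.50 at ZT20, and Ugt2b36 from 0.16 at ZT24 to 0.51 at ZT20. Ugt2b1 ran from −0.09 at ZT04 to −1.03 at ZT16 and was below 0 at each time. Ugt2b35 was above 0 at 5 of 6 times, with 0.58 at ZT08 and 0.50 at ZT12, and below 0 at ZT16 (−0.32). With the block and the trends taken out together, its difference passed at ZT12 (0.81, edgeR adjusted p = 0.00498) and, in the other direction, at ZT16 (−0.68, edgeR adjusted p = 0.0184), while over the libraries as counted neither time passed (0.96 and 0.03, edgeR adjusted p = 0.318 and 0.961). Ugt1a6a ranged from 0.11 at ZT24 to 0.92 at ZT20, and Ugt1a1 from 0.02 at ZT04 to 0.57 at ZT16. Ugt2a3 stayed between −0.21 and 0.19.

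Time by time, the test called 2 of the 60 gene and time pairs. Beside Ugt1a9 at ZT16, Ugt1a6a passed at ZT20, with 7.95 and 10.1 CPM in wild-type and 25.02 and 19.5 CPM in knockout libraries (log2 change 1.31, SE 0.31, edgeR adjusted p = 0.0351). At ZT20 3.93% of all genes passed. That call did not hold without wild-type set I (1.14, edgeR adjusted p = 0.0583), with the trends taken out (0.88, edgeR adjusted p = 0.0711) or without any of 9 single libraries. With the set as a block Ugt2b5 and Ugt2b36 also passed at ZT20 (log2 changes 1.15 and 1.02, edgeR adjusted p = 0.0409 and 0.0344), in a fit where 2871 of the 15090 genes passed at that time. None of the 10 passed at ZT04 (1.26% of all genes), ZT08 (0.934%), ZT12 (1.85%) or ZT24 (0.676%).

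No gene of the 10 passed the test of a 24 h rhythm, in wild type (8.67% of all genes) or in the knockout (3.57%). Fitted amplitudes, on the log2 scale from the mean to the peak, were 0.09 to 0.27 in wild type. In the knockout they were 0.14 to 0.60, and the lowest edgeR adjusted p was that of Ugt1a1 (amplitude 0.45, peak at 16.3 h, edgeR adjusted p = 0.0713). With the trends over GC content and length taken out, Ugt2b34 and Ugt2a3 passed in wild type with amplitudes of 0.27 and 0.21, where 13.7% of all genes passed. In that fit Ugt1a1, Ugt2b34 and Ugt2b35 passed in the knockout with amplitudes of 0.46, 0.25 and 0.45 and peaks at 16.3, 13.5 and 6.83 h, where 7.75% of all genes passed. Without wild-type set I, an alternative added after seeing the data, Ugt1a1, Ugt1a6b, Ugt2b34 and Ugt2b35 passed in the knockout (edgeR adjusted p = 0.00180, 0.0195, 0.0146 and 0.00434), as did 17.6% of all genes. Over the libraries as counted, 6.66% of all genes passed the test of any difference among times in wild type and 2.25% in the knockout. The shares of all genes in the fits that follow are not given here. In wild type Ugt1a6b passed with the block (edgeR adjusted p = 0.0472) and with the trends taken out (0.0152). Ugt2b34 passed the test there with the trends taken out (edgeR adjusted p = 0.0271). In the knockout Ugt2b35 passed it with the trends taken out (edgeR adjusted p = 0.00814), and Ugt1a1, Ugt1a6b and Ugt2b35 did without wild-type set I (0.0389, 0.0277 and 0.00295). For the difference of rhythms between genotypes and for the interaction of genotype and time, edgeR called 0 of 15090 genes each, with 791 and 966 at an unadjusted p under 0.05, while DESeq2 called 28 and 129. Ugt1a9 was 1 of the 129 (DESeq2 adjusted p = 0.00033), against an edgeR adjusted p of 0.339. The Ugt1a9 interaction also passed without a filter (edgeR adjusted p = 2.02e-16) and with the block and trends (edgeR adjusted p = 0.0418). The shares of all genes in those 2 fits are not given here.

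Per length, the 6 Ugt2 genes were more abundant than Ugt1a1, Ugt1a6a and Ugt1a6b, which is a comparison of levels, as CPM per kb of annotated exon, in set P of wild type. Ugt1a9 was also below the lowest Ugt2 gene, Ugt2b35, by this measure, but not when counted over its unshared bases alone. Ugt2b1 (390 ± 56.1), Ugt2b5 (380 ± 33.5) and Ugt2b36 (379 ± 32.8) led and did not differ beyond their spread (SD, n = 6). Ugt2b34 (179 ± 18.9) and Ugt2a3 (151 ± 19.997) followed, then Ugt2b35 (112 ± 11.9) and Ugt1a9 (62.5 ± 30.6). Ugt1a1 (18.97 ± 2.02), Ugt1a6b (15.7 ± 2.02) and Ugt1a6a (3.41 ± 0.626) were lowest. In set P of the knockout Ugt2b5 (507 ± 28.1) and Ugt2b36 (469 ± 26.2) stood above Ugt2b1 (271 ± 31.9). Over the unshared exonic bases alone, the Ugt1a9 level in wild-type set P was 156 ± 76.2 CPM per kb, beside that of Ugt2a3. Its place in this order thus rests on how shared reads were counted. The Ugt1a8 row held 28 counts over all 24 libraries beside 54097 for Ugt1a9, so shared reads were not counted in full for each Ugt1a row. Levels of the Ugt1a genes per kb of annotated exon may therefore be too low.

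**Figure D5:**
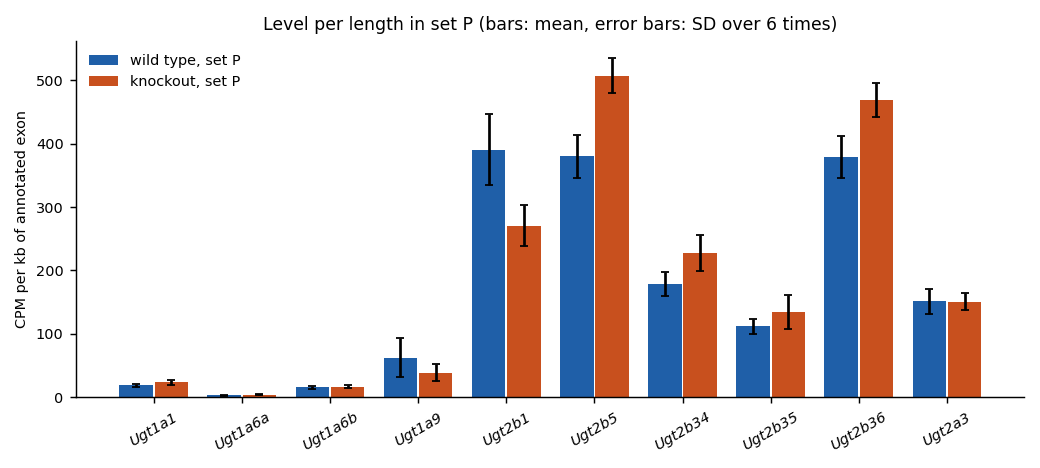
Mean CPM per kb of annotated exon (y axis, from 0) of each gene (x axis) in set P, wild type in blue and knockout in orange, with SD over 6 libraries as error bars. Ugt2b1, Ugt2b5 and Ugt2b36 lie together in wild type (379 to 390), and in the knockout Ugt2b1 lies below the other two (271 against 507 and 469).

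Of the 12 other Ugt rows, 8 passed the filter on low counts and, averaged over all libraries, 1 of those rose (12.1% of all genes) and none fell (21.1%). Ugt1a2 had means of 0.363 ± 0.219 CPM (wild type) and 0.763 ± 0.459 CPM (knockout, SD, n = 12 each), a log2 change of 1.15 (edgeR adjusted p = 0.0300). In set P the Ugt1a2 change was 0.18 (edgeR adjusted p = 0.794). Ugt3a2, of a family that uses other sugar donors, was the most abundant of the 12 at 446 ± 53.7 CPM in wild-type and 397 ± 45.1 CPM in knockout libraries. The log2 change of Ugt3a2 was −0.17 over all libraries (edgeR adjusted p = 0.0535), −0.08 in set P (0.466) and −0.46 with the trends taken out (0.0204). Ugt2b38 was barely counted, at no more than 0.241 CPM in any wild-type library and 0 to 3.01 CPM in the knockout libraries. It rose in set P (log2 change 3.33, edgeR adjusted p = 0.0116) but did not pass over all libraries (2.84, edgeR adjusted p = 0.183). Its set P knockout libraries held 41, 44 and 17 counts at ZT04, ZT20 and ZT24, and 0 to 4 at the other times. These few counts may hold misplaced reads of its near copy Ugt2b5, which was not tested. Ugt2b37, with 18.5 and 7.04 CPM in wild type and 2.05 CPM in both knockout libraries, fell at ZT12 (log2 change −2.63, edgeR adjusted p = 0.0297). Its wild-type libraries at the other 5 times held 0.678 to 3.62 CPM. Ugt3a1 passed the test of a 24 h rhythm in the knockout (amplitude 0.75, edgeR adjusted p = 0.0232). Ugt1a8, Ugt8a, Ugt2a1 and Ugt2a2 did not pass the filter.

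Genes that supply the reaction and move its products were read from lists chosen for this pathway. Beside the counts that follow stand the 12.1% of all genes that rose over all libraries and the 21.1% that fell, and 6.71% and 6.33% in set P. The median log2 changes were 0.06 for cofactor supply, −0.67 for deconjugation, 0.42 for transport, −0.22 for bilirubin formation and −0.14 for the regulators, against −0.02 over all genes. In set P they were 0.03, −0.59, 0.16, −0.01 and −0.14 in the same order, against −5.06e-05 over all genes. With the trends taken out they were 0.02, −0.41, 0.05, 0.04 and 0.08, against 0.06. In cofactor supply 1 of 6 genes rose over all libraries, Ugdh, the UDP-glucose dehydrogenase, from 203 ± 32.7 to 337 ± 58.9 CPM (SD, n = 12 each). The log2 change of Ugdh was 0.73 (edgeR adjusted p = 3.06e-05), and 0.61 in set P (edgeR adjusted p = 0.000408), but 0.22 with the trends taken out (edgeR adjusted p = 0.204). In that fit the UDP-glucose pyrophosphorylase gene Ugp2 rose (0.21, edgeR adjusted p = 0.0491) and Uxs1, whose enzyme turns UDP-glucuronic acid into UDP-xylose, fell (−0.25, edgeR adjusted p = 0.0459). In deconjugation 2 of 2 fell, the lysosomal beta-glucuronidase Gusb (−0.36, edgeR adjusted p = 0.00857) and the esterase Ces1e, known for retaining it in the endoplasmic reticulum (−0.98, edgeR adjusted p = 5.66e-06). Of these, Ces1e also fell in set P (−1.03) and with the trends taken out (−0.77), where Gusb did not pass (−0.06, edgeR adjusted p = 0.466).

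Among 7 transport genes, the bile export pump Abcc2 and the uptake carrier Slco1a4 rose (0.42 and 1.29) and the efflux pumps Abcc3 and Abcg2 fell (−0.41 and −0.82). Slco1a4 and Abcg2 also passed in set P, with log2 changes of 0.93 and −0.97, and with the trends taken out (0.97 and −1.49). With the trends taken out Abcc3 fell (−0.26, edgeR adjusted p = 0.0160) and Abcc2 did not pass (0.05, edgeR adjusted p = 0.539). Among 4 genes of bilirubin formation 1 fell, the biliverdin reductase Blvrb (−0.26), and none passed in set P. With the trends taken out Blvrb did not pass (0.06, edgeR adjusted p = 0.554), while the heme oxygenase Hmox1 rose (0.36, edgeR adjusted p = 0.00677) and the biliverdin reductase Blvra fell (−0.30, edgeR adjusted p = 0.0345). Of 9 regulators, the aryl hydrocarbon receptor gene Ahr rose (0.68), and the nuclear receptor genes Nr1i3, Nr1i2 (PXR) and Hnf4a fell (−0.97, −0.37 and −0.35). With the trends taken out Ahr and Nfe2l2 rose (0.51 and 0.15), Nr1i3 and Hnf4a fell (−0.68 and −0.17), and Nr1i2 did not pass (−0.05, edgeR adjusted p = 0.446). In set P the fall of Nr1i3 was the single regulator call (−0.89, edgeR adjusted p = 0.000784), with 49.0 ± 12.9 CPM in wild-type and 26.3 ± 5.28 CPM in knockout libraries (SD, n = 6 each). As a check of the labels, Dbp, Tef and Hlf fell in the knockout, with medians of 0, 12.7 and 1.48 CPM against 3.05, 190 and 72.0 CPM.

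The genes most like each member across the 24 libraries were taken from 10660 well-expressed genes outside the family, by Pearson correlation of log2 CPM. They are a description, since the 24 libraries share genotype, time and set effects. Ugt1a6a was nearest to Gas2l3 and Jarid2 (r = 0.89 each, and 0.80 and 0.94 in set P). Ugt2b1 was nearest to Abcg2 and Eif3j2 (r = 0.81 and 0.80, and 0.87 and 0.88 in set P). The other 5 Ugt2 genes had closer neighbours, with r of 0.92 to 0.98, such as Ddx6 for Ugt2b36 and Syne2 for Ugt2b5, which fell to between 0.63 and 0.95 in set P. Ugt1a1 was nearest to Pfkfb1 (0.76), Ugt1a6b to Cstb (0.74) and Ugt1a9 to Col1a1 (0.69).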

How the data were processed

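Liver mRNA of 24 libraries was measured. The deposited values are the authors' raw counts, 1 row per Ensembl gene and 1 column per library, per the file headers. The submitters' processing notes list STAR 2.4.0i and mm10, and the labels' protocols a stranded TruSeq mRNA kit. Which tool, annotation and strand option made the counts is not given in the sources used here.

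Symbols, coordinates, GC content and lengths came from GENCODE M21 (54409 of 54532 genes matched). CPM are counts over TMM-scaled library sizes. Tests used the quasi-likelihood F-test of edgeR 4.0.16 in R 4.3.3, on genes kept by filterByExpr (minimum count 10), which left 15090. P-values were adjusted by Benjamini-Hochberg over all genes tested and called under 0.05. A fit of 12 group means gave genotype, time and interaction tests, and a fit of a 24 h cosine and sine per genotype gave rhythms. Set P was fitted alone with genotype and time as terms. Alternatives were DESeq2 1.42.0, its size factors, no filter, each library left out, a set block, and offsets from natural splines (4 degrees of freedom) over GC content and length. Ratios within a set used a pseudocount of 0.5 CPM. The scripts' tests were checked on simulated data. The 10 genes and all lists were chosen with earlier results of these data known. Named were all 10 genes, the other Ugt rows, the listed pathway genes that passed, and the 2 genes most correlated with each member. No library pair held identical values.

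Depth was 14613001 to 19288322 counts per library. Libraries of 1 letter and time deviated together across genotypes at r of 0.0541 to 0.231 over 15090 genes and 0.125 to 0.319 over the 11333 whose mean log2 CPM reached 1. The labels do not say that the letter marks an animal or day, so the block was kept as an alternative and is given beside results it changes.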

Additional observations from a re-analysis of the deposited data

Results flagged for a closer look

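For 7 of the 10 genes the genotype difference in set P differed from that in set I, by a test of the difference of differences in 1 fit, added after seeing the data. The same test passed for 29% of all 15090 genes. Per gene, the set P change minus the set I change on the log2 scale was 0.70 for Ugt1a1 (edgeR adjusted p = 0.0165), which was lower in the knockout of set I (−0.38) and not of set P (0.32). The differences were −0.62 for Ugt1a6a (edgeR adjusted p = 0.0305), −0.82 for Ugt2b5 (0.0170), −0.87 for Ugt2b34 (0.0303), −0.74 for Ugt2b35 (0.0185), −0.58 for Ugt2b36 (0.0284) and −0.65 for Ugt2a3 (0.0199). In these 6 genes the set I change was the larger, at 0.65 to 1.23. The 3 remaining genes did not pass: Ugt2b1 (−0.41, edgeR adjusted p = 0.0692), Ugt1a6b (0.25, edgeR adjusted p = 0.171) and Ugt1a9 (−0.05, edgeR adjusted p = 0.902). In that fit the set P change itself passed for Ugt2b1 (−0.53, edgeR adjusted p = 0.0117) and for none of the other 9. Wild-type set I carries the trend over GC content, and the part of that trend in these differences was not tested by this fit.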

How the results depend on the processing

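Over all genes, averaged genotype calls numbered 5007 as reported (36.5% of them higher), 7898 with the replicate block (48.0%), 6236 without a filter (57.8%), 4348 with the trends over GC content and length taken out (52.3%), 2894 without wild-type set I (52.8%) and 1968 in set P (51.5%). Leaving out wild-type ZT20 replicate 2 gave 9130 calls, ZT04 replicate 2 gave 7810, ZT16 replicate 2 gave 7621 and ZT16 replicate 1 gave 3315. Among the 10 genes, 2 rose in set P with the trends taken out, against 5. Only 1 fell with DESeq2 size factors, without wild-type set I, in set P, and in set P with the trends taken out, against 2. Leaving out 1 library at a time gave 4 to 6 higher and 0 to 1 lower. For the counts per time that follow, the numbers of all genes that passed in the same fits are not given here. The exception is ZT20 with the block alone, given above. Called genes per time, against 0, 0, 0, 1, 1 and 0 from ZT04 to ZT24, were 1, 1, 2 and 4 without a filter at ZT08, ZT12, ZT16 and ZT20. They were 2 at ZT12 and 2 at ZT16 with the trends taken out, and 2, 3 and 2 at ZT12, ZT16 and ZT20 with the block as well. With the replicate block alone 3 passed at ZT20. Without wild-type set I 2 passed at ZT16 and 0 at ZT20. Leaving out 1 library gave 0 to 1 at ZT04 and ZT16, 0 to 6 at ZT20 (6 without wild-type replicate 2) and 0 at ZT08, ZT12 and ZT24. Wild-type rhythms numbered 2 with the trends taken out and 3 with the block as well, and knockout rhythms 3 and 3, 1 with DESeq2 and 4 without wild-type set I, against 0 each. Single libraries left out gave 0 to 1 knockout rhythm, and 0 for wild-type rhythm, rhythm difference and interaction. The interaction called 1 gene with DESeq2, 1 without a filter (Ugt1a9 in both) and 2 with the block and trends (Ugt1a9 and Ugt2b35). Signs turned where none passed over all libraries. The Ugt1a1 change was 0.047 with the trends taken out, 0.051 with the block as well, 0.20 without wild-type set I, 0.31 in set P and 0.32 in set P with the trends taken out. For Ugt1a6b these were 0.057, 0.057, 0.069, 0.095 and 0.11. Leaving out 1 library took Ugt1a1 from −0.081 to 0.035 and Ugt1a6b from −0.051 to 0.0199. For Ugt2a3 the change was −0.026 without wild-type set I, −0.010 in set P and −0.081 in set P with the trends taken out. Wild-type levels per unshared kb were 55.1 for Ugt1a1, 6.31 for Ugt1a6a, 43.2 for Ugt1a6b and 181 for Ugt1a9, against 22.6, 3.13, 17.01 and 72.6 per kb. The cause of these shifts was not tested, beyond fewer libraries or bases where some were left out. The summed Ugt1a locus gives no value per gene and stands in the report alone.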
